A study of Mus musculus with 8 samples.

Results

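The genes described here encode subunits of the mitochondrial oxidative phosphorylation machinery, measured in mouse neutrophils with and without the small GTPase Arf6. The list held 46 nuclear genes: 16 of complex I, 7 of complex III counted with cytochrome c, 10 of complex IV and 13 of complex V. Each gene was represented by the probe set that carried its symbol alone and had the highest mean over the 8 arrays. This gave values for 45 of the 46 genes, out of 22180 genes with such a probe set. Cox6c was found only on probe sets that carry several symbols and has no value here. Atp5f1 was matched as Atp5pb, its current symbol.

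The neutrophils had migrated into air pouches that were injected with LPS, and each array holds RNA from the pooled cells of 5 mice. The Arf6 cKO mice were flox+/+Cre+/+ (3 arrays). The flox controls were flox+/+Cre-/- and carry the floxed allele without Cre (3 arrays). The Cre controls were flox-/-Cre+/+ and carry Cre without the floxed allele (2 arrays, and a further pool described in the design was not analysed here). The cKO group shares the floxed allele with one control and Cre with the other, so neither control differs from it in Arf6 alone. The labels do not name the promoter that drives Cre, nor the age or sex of the mice. The cells had been purified by negative selection, and 98% were Ly6G positive by flow cytometry. Values are deposited log2 intensities, on which a difference of 1 is a doubling. The pools are separate groups of mice, so the spread between arrays includes variation between pools but not between single animals.

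Arf6 was read first as a check of the labels. Its brighter probe set had levels of 6.49, 6.06 and 6.20 in the cKO, 8.19, 8.20 and 7.68 in the flox controls, and 7.79 and 7.86 in the Cre controls. It was lower in the cKO than in both controls by a log2 difference of -1.67 (SE 0.15, limma adjusted p = 0.0122), and every cKO array lay below every control array. The dimmer Arf6 probe set differed by -0.15 (SE 0.15, limma adjusted p = 0.816). Its groups overlapped, at 6.13 to 6.49 in the cKO and 6.20 to 6.81 in the controls. A source field in the labels names genotypes differently from the titles and genotype fields, and the Arf6 levels of the brighter probe set followed the latter. The 8 arrays were close to each other over all probe sets, with medians of 5.41 to 5.48. Pairwise correlations were 0.977 to 0.992. The 10 neutrophil markers had mean levels of 11.66 to 12.12 across the arrays. Flox control replicate 1 had an Xist level of 5.46, against 7.84 or more on the other arrays. The Y-linked Eif2s3y was at 4.08 in cKO replicate 1, against 8.66 or more elsewhere, so the mix of sexes differed between pools.

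Oxidative phosphorylation is the route by which mitochondria turn the energy of NADH and succinate into ATP. Complex I takes electrons from NADH, complex III passes them to the mobile carrier cytochrome c, complex IV hands them to oxygen, and complex V uses the resulting proton gradient to make ATP. Most subunits are encoded in the nucleus and the rest in mitochondrial DNA, and none of the 13 mitochondrially encoded subunits was named in the probe table used here. Neutrophils have few mitochondria and are known to draw their ATP mainly from glycolysis, which is the process named in the title of the study.

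Many nuclear genes of this machinery are known targets of the transcription factors NRF1, the ETS family factor GABP (also called NRF2) and YY1. Promoters were therefore read from the RefSeq table (GRCm38.p6), as the 250 bases before and 50 after each start. The table held 40 promoters of 36 of the 46 genes. Both strands were searched for the exact letters GCATGCGC for NRF1, CCGGAAG for ETS factors and AAGATGGC for YY1. The following stretches, all upstream of the start and read 5′ to 3′ along the gene's strand, show these letters in genes of complexes III to V, with the matches in capitals.
Cycs: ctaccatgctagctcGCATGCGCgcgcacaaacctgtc
Atp5k: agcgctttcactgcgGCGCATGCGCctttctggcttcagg
Cox6a1: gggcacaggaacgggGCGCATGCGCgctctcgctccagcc
Atp5j: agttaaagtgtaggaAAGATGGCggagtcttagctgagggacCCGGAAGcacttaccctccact
Atp5e: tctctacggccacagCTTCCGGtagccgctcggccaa
Atp5h: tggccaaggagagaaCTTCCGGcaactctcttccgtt
The Cycs stretch lies at chr6:50566607-50566644 on the minus strand, and its NRF1 letters end 53 bases before the start. In Atp5k (chr5:108434425-108434464, minus strand) and Cox6a1 (chr5:115349096-115349135, minus strand) the NRF1 letters overlap themselves on both strands, which gives the palindromic run in capitals. The Atp5j stretch (chr16:84835016-84835079, minus strand) holds the YY1 letters first and the ETS letters second. In Atp5e (chr2:174464182-174464218, minus strand) and Atp5h (chr11:115419936-115419972, minus strand) the ETS letters appear as their reverse complement.

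The NRF1 letters were in 15% of the 40 promoters, against 3.5% of the 21263 promoters of protein-coding genes in the table. The ETS letters were in 22.5% against 11.6%, and the YY1 letters in 12.5% against 3.1%. The letters AAGGTCA, read by ERR nuclear receptors, were in 10% against 4.1%, and the cAMP response element TGACGTCA was in 7.5% against 2.2%. The TATA letters TATAAA were in 2.5% against 12.6%. The GC box GGGCGG was in 42.5% of the promoters of these genes, between its share of 46.2% for protein-coding genes and 35.7% for all 32851 promoters. A match is a run of letters and not a measured binding site, and 20 of the genes had none of the NRF1, ETS and YY1 letters in these windows.

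**Figure D1:**
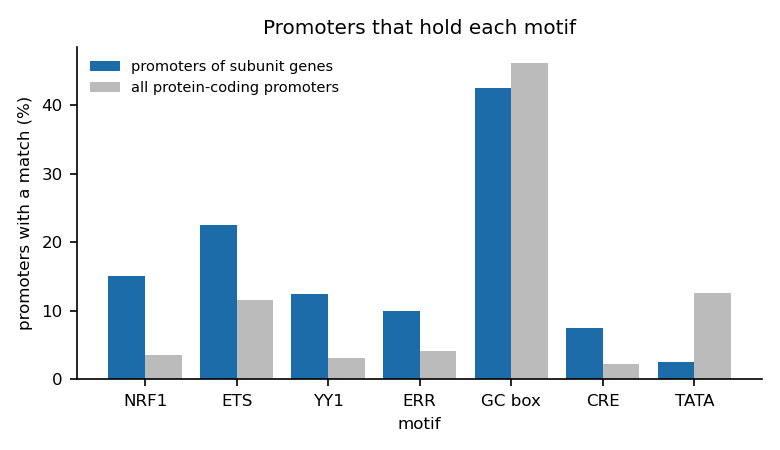
Share of promoters (percent, vertical axis) that hold each motif on either strand, for the 40 promoters of the subunit genes (blue) and for all 21263 promoters of protein-coding genes (grey). NRF1 stands at 15% against 3.5%, and TATA at 2.5% against 12.6%.

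The central comparison asks whether the subunit genes differed between neutrophils lacking Arf6 and the controls. None of the 45 genes passed an adjusted p of 0.05 (limma, Benjamini-Hochberg over all 14002 probe sets tested) in any of the 4 comparisons. Over all probe sets 0.00714% were called between the cKO and the mean of both controls, 0.0429% between the cKO and the flox control, 0.0714% between the cKO and the Cre control, and 0.486% between the Cre and flox controls. A count of 0 among 45 genes is near these background rates. At an unadjusted p below 0.05 the 4 counts among the 45 genes were 0, 0, 2 and 1, against 9.52%, 8.26%, 13.5% and 14.7% of all probe sets. The controls are shared between these comparisons, so the counts are not independent of each other.

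The differences were small and went both ways. Against both controls they ran from -0.30 for Ndufs4 to 0.24 for Ndufa5, with a median of 0.01, the same as over all probe sets. Of the 45 genes 25 were higher in the cKO, and over all probe sets the share was 53.4%. The median size of the difference, regardless of sign, was 0.08 for these genes and 0.11 for all probe sets. Compared with the flox control the median was -0.01, beside 0.01 over all probe sets, and 19 of the 45 genes were higher, beside 52.4%. Compared with the Cre control it was 0.05, also beside 0.01, and 28 genes were higher, beside 52%. The Cre minus flox control difference had a median of -0.06, beside -0.00, and 19 genes were higher, beside 49.2%.

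The intervals bound the size of what could have been missed. In the cKO against both controls, the 95% intervals of all 45 genes lay within a log2 difference of 1 in either direction, with outer bounds of -0.81 for Cycs and 0.81 for Cox7b. For 35 genes the interval lay within 0.5, a change of 1.41-fold. Against the flox control alone the intervals of all 45 genes lay within 1, and 32 lay within 0.5. Against the Cre control, with 2 arrays, 44 lay within 1, the exception being Cycs with a lower bound of -1.15, and 25 lay within 0.5. The intervals are for each gene singly and are not adjusted for the number of genes.

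**Figure D2:**
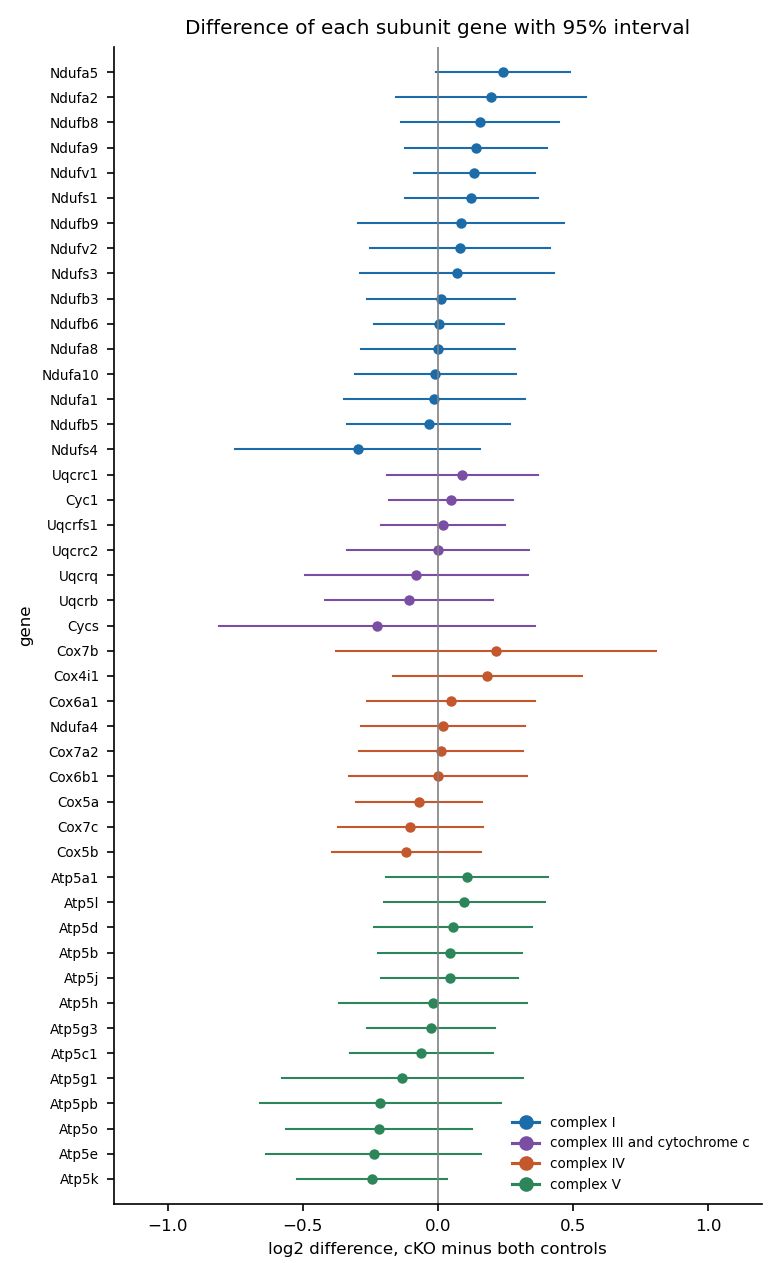
Log2 difference of each subunit gene, cKO minus both controls (horizontal axis), with its 95% interval from limma, grouped by complex and ordered within it. Every interval includes 0, and the points run from -0.30 to 0.24.

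Complex I, the largest complex of the chain, was represented by 16 genes, of which 11 were higher in the cKO than in both controls, with a median of 0.08. Ndufa5, an accessory subunit of the arm that reaches into the matrix, had levels of 6.20, 6.06 and 6.04 in the cKO, 5.78, 5.75 and 6.03 in the flox controls, and 5.95 and 5.77 in the Cre controls. All 3 cKO arrays were above all 5 controls, the lowest of them by 0.01. Its difference of 0.24 (SE 0.11, unadjusted p = 0.0548, limma adjusted p = 0.532) did not pass the test. Ndufv1, which binds NADH and the flavin that accepts its electrons, was the other gene whose groups did not overlap, by a very small margin. Its lowest cKO array was at 7.3703 and its highest control array at 7.367. Its levels were 7.39, 7.37 and 7.45 in the cKO, 7.37, 7.36 and 7.20 in the flox controls, and 7.32 and 7.14 in the Cre controls, a difference of 0.14 (SE 0.10, limma adjusted p = 0.731). These are 2 of 45 genes, and 4.36% of all probe sets had cKO arrays wholly above or wholly below the controls, 2.11% wholly above.

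Ndufs4, an accessory subunit whose loss in mice causes a Leigh-like encephalopathy, had the lowest difference of the set. Its levels were 7.01, 6.86 and 7.39 in the cKO, 7.92, 7.32 and 6.99 in the flox controls, and 7.33 and 7.38 in the Cre controls. The flox controls alone spanned all the cKO values except the lowest, and the difference from both controls was -0.30 (SE 0.20, limma adjusted p = 0.706). Ndufa2, an accessory subunit of the NADH-oxidising module, was low in the Cre controls, at 7.41 and 7.01. The cKO arrays were at 7.49, 7.97 and 7.65, the flox controls at 8.04, 7.79 and 7.59. The Cre controls lay below every other array. The cKO minus Cre control difference was 0.50 (SE 0.19, unadjusted p = 0.0292, limma adjusted p = 0.309), and the Cre minus flox control difference was -0.60 (SE 0.19, unadjusted p = 0.0122, limma adjusted p = 0.194). Against the flox control alone the cKO differed by -0.10 at this gene. Between the controls, Ndufs1, an iron-sulfur subunit of the same module, also had groups that did not overlap, with means of 6.97 ± 0.11 (SD, n = 2) in the Cre and 7.23 ± 0.09 (SD, n = 3) in the flox controls.

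Complex III and cytochrome c were represented by 7 genes, 4 of them higher in the cKO than in both controls, with a median of 0.00. Cycs encodes cytochrome c, which carries electrons between complexes III and IV and, once released into the cytosol, activates caspases. Its levels were 9.60, 9.20 and 9.82 in the cKO, 10.25, 9.50 and 8.94 in the flox controls, and 10.05 and 9.88 in the Cre controls. The flox controls contained the whole range of the cKO. The difference from both controls was -0.22 (SE 0.26, limma adjusted p = 0.847). Its testis paralogue Cyct was at 4.60 to 5.10 on all arrays and was not tested, since it did not pass the filter on low levels. Uqcrb, an accessory subunit near the ubiquinone site, had 8.63, 8.88 and 8.41 in the cKO, 8.80, 8.74 and 8.40 in the flox controls, and 8.88 and 8.82 in the Cre controls. The cKO spread covered the mean of both controls, with a difference of -0.11 (SE 0.14, limma adjusted p = 0.868).

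Among the other genes of complex III, the differences from both controls were between -0.08 for Uqcrq and 0.09 for Uqcrc1. Uqcrfs1, the Rieske iron-sulfur protein, differed by 0.02, and Cyc1, cytochrome c1, by 0.05. All were smaller than the spread between arrays of a group, whose median SD over the 45 genes was 0.190.

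Complex IV was represented by 9 measured genes, 5 of them higher in the cKO, with a median of 0.01. Cox4i1 encodes the ubiquitous form of the subunit through which ATP is known to inhibit the enzyme. Its levels were 8.34, 8.46 and 8.34 in the cKO, 8.61, 8.33 and 7.89 in the flox controls, and 8.22 and 8.02 in the Cre controls, a difference of 0.18 (SE 0.16, limma adjusted p = 0.772). The cKO arrays lay within the range of the flox controls. Its lung and hypoxia-linked paralogue Cox4i2 was at 6.31, 6.27 and 6.36 in the cKO, 6.41, 6.29 and 6.36 in the flox controls, and 6.29 and 6.15 in the Cre controls, a difference of 0.03 (SE 0.10).

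Cox7b, a small subunit encoded on the X chromosome, had 5.47, 6.36 and 5.97 in the cKO, 6.09, 5.80 and 5.01 in the flox controls, and 6.02 and 5.58 in the Cre controls. Its within-group SD of 0.473 was the highest of the 45 genes, and the difference of 0.22 (SE 0.27, limma adjusted p = 0.858) was smaller than its own error. It was 0.0013 once cKO replicate 2 was left out, 0.06 once flox control replicate 3 was, and 0.45 once cKO replicate 1 was, so its size depended on single arrays. Ndufa4, first described in complex I and now assigned to complex IV, had 8.32, 8.04 and 8.01 in the cKO, 8.12, 8.23 and 7.75 in the flox controls, and 8.13 and 8.22 in the Cre controls. The groups overlapped, with a difference of 0.02 (SE 0.14). Its paralogue Ndufa4l2, known as a HIF-1 target, was at 4.37 to 5.10 on all arrays and did not pass the filter, and the other paralogue AA467197 was only on a probe set with several symbols. Cox6a1, the widely expressed form of its subunit and one of the genes with the NRF1 palindrome, had 12.18, 12.08 and 12.22 in the cKO, 12.47, 12.24 and 11.85 in the flox controls, and 12.01 and 12.05 in the Cre controls. The cKO arrays lay within the range of the flox controls, with a difference of 0.05 (SE 0.14) from both controls.

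Complex V, the ATP synthase, was represented by 13 genes, 5 of them higher in the cKO, with a median of -0.02. Atp5a1 and Atp5b, the subunits that form the catalytic head, differed from both controls by 0.11 and 0.05. Atp5k, a membrane subunit involved in holding synthase dimers together, had 7.88, 7.62 and 7.89 in the cKO, 8.05, 7.91 and 7.80 in the flox controls, and 8.33 and 7.99 in the Cre controls. The cKO arrays lay below both Cre controls and overlapped the flox controls. The difference was -0.36 (SE 0.15, unadjusted p = 0.0409, limma adjusted p = 0.346) against the Cre control and -0.24 (SE 0.12, limma adjusted p = 0.581) against both.

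Atp5e, a subunit of the rotating central stalk, had 7.21, 7.26 and 7.21 in the cKO, 7.99, 7.54 and 7.07 in the flox controls, and 7.44 and 7.34 in the Cre controls. The cKO arrays were within 0.05 of each other, and flox control replicate 3 was below them. The difference from both controls was -0.24 (SE 0.18, limma adjusted p = 0.74) on this probe set. Another probe set of Atp5e, at a mean level of 7.18 beside 7.38, gave -0.06 (SE 0.17, limma adjusted p = 0.953). The stalk that holds the head still includes the products of Atp5h and Atp5j. Atp5h had 9.90, 9.98 and 9.86 in the cKO, 10.27, 9.97 and 9.52 in the flox controls, and 9.96 and 9.94 in the Cre controls, a difference of -0.02 (SE 0.16). Atp5j had 6.41, 6.39 and 6.46 in the cKO, 6.70, 6.46 and 6.29 in the flox controls, and 6.24 and 6.30 in the Cre controls, a difference of 0.04 (SE 0.11). For both genes the flox controls held the highest array and overlapped the cKO.

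The ring through which protons turn the synthase is made of subunit c, which 3 genes encode as the same mature protein. Atp5g1 had 5.74, 5.66 and 6.15 in the cKO, 6.67, 6.20 and 5.81 in the flox controls, and 5.57 and 5.90 in the Cre controls. Its cKO minus flox control difference was -0.38 (SE 0.22, unadjusted p = 0.119, limma adjusted p = 0.699), and its Cre minus flox control difference was -0.49 (SE 0.25, limma adjusted p = 0.395). Only the flox controls held arrays above 6.15, and their lowest array overlapped the other groups. Atp5g2, which is not on the list of 46, had 8.62, 8.63 and 8.62 in the cKO, 8.59, 8.78 and 8.0 in the flox controls, and 8.72 and 8.72 in the Cre controls, a difference of 0.04 (SE 0.16). This probe set of Atp5g2 stands among probe sets of genes on chromosome 17. Another, among neighbours of the gene's own chromosome 15, gave -0.01 (SE 0.14). Atp5g3 had 6.87, 7.07 and 7.00 in the cKO, 6.91, 7.01 and 6.82 in the flox controls, and 7.19 and 6.99 in the Cre controls, a difference of -0.02 (SE 0.11). None of the 3 genes differed between the cKO and both controls by more than its error.

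**Figure D3:**
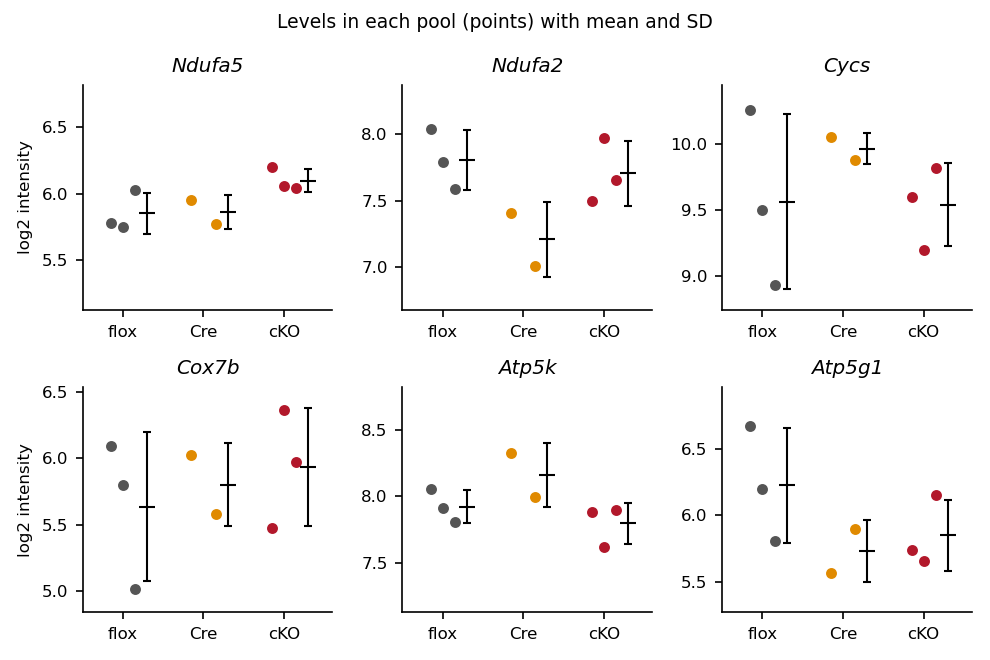
Log2 intensity (vertical axes) of 6 subunit genes in each pool, with the mean and SD of each group beside the points (n = 3 flox, 2 Cre, 3 cKO), each panel on its own scale spanning the same width. For Cycs, Cox7b and Atp5g1 the flox controls spread over a wider range than the cKO arrays, and Ndufa2 is lowest in the Cre controls.

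Groups that did not overlap were also counted in the other comparisons. Against the flox control the same 2 genes, Ndufa5 and Ndufv1, were wholly higher in the cKO, beside 5.93% of all probe sets wholly higher and 12.2% in either direction. Relative to the Cre control 14 genes were wholly higher in the cKO, beside 18.5% of all probe sets, and 3, Cycs, Atp5e and Atp5k, were wholly lower, beside 16%. In either direction 17 of 45 genes did not overlap, beside 34.4%. The other Atp5e probe set overlapped the Cre controls. Between the controls, Uqcrb was wholly higher in the Cre pools, beside 15.3%. There 4 genes, Ndufa2, Ndufs1, Uqcrq and Cyc1, were wholly lower, beside 17.4%, and 32.7% of all probe sets did not overlap in either direction.

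The subunit genes varied together among the flox controls. In flox control replicate 1, 40 of the 45 genes were above their own mean over the 8 arrays, with a median deviation of 0.23. In replicate 3, 5 of the 45 were above it, with a median deviation of -0.20, and replicate 2 lay between these with 33 genes and 0.05. The cKO arrays had 21, 24 and 22 genes above their mean and medians of -0.02, 0.03 and -0.01, and both Cre controls had 18 genes and medians of -0.05 and -0.06. Replicate 1 was the highest of the 8 arrays for 24 of the 45 genes, beside 22% of all probe sets, and replicate 3 the lowest for 24, beside 15%. These arrays were singled out after their values were seen, and the difference between them is one between single arrays with no test.

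**Figure D4:**
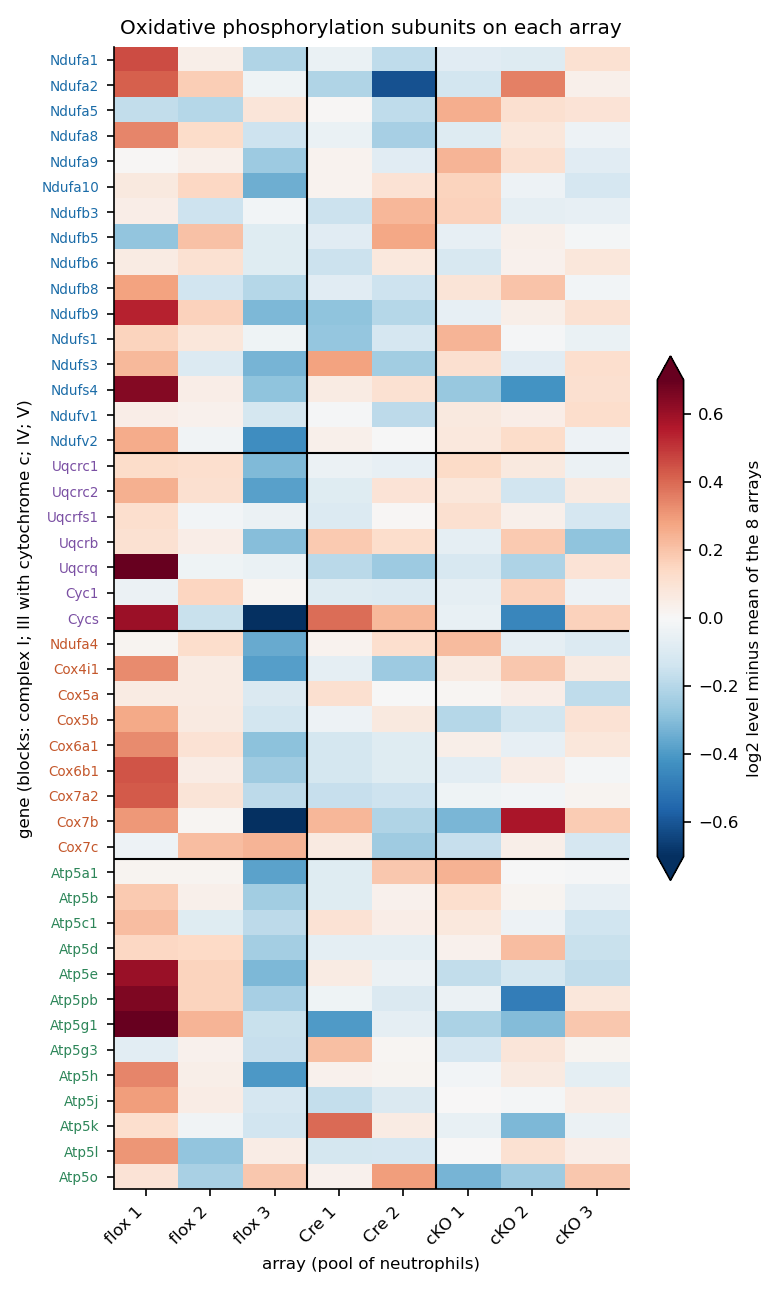
Log2 level of each of the 45 genes minus its mean over the 8 arrays (colour), by array (horizontal axis, with the groups separated by lines) and by complex (vertical blocks). The column of flox control 1 is mostly red and that of flox control 3 mostly blue in all 4 blocks, with 40 and 5 genes above their mean.

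**Figure D5:**
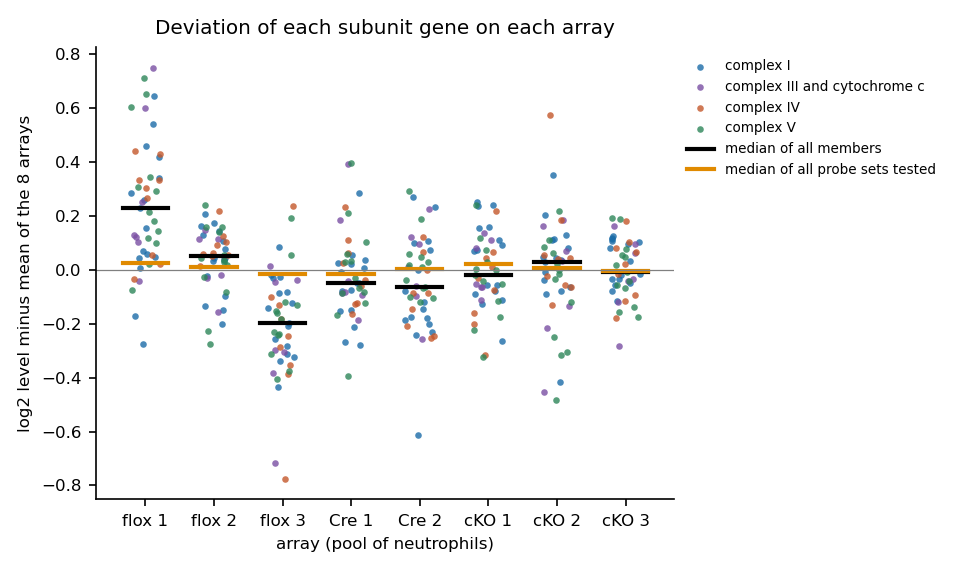
Deviation of each subunit gene from its 8-array mean (log2, vertical axis) on each array, with 1 point per gene coloured by complex, the median of the 45 genes (black) and that of all 14002 probe sets (orange). The black line stands at 0.23 in flox control 1 and at -0.20 in flox control 3, and between -0.06 and 0.05 on the other arrays.

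Replicate 1 exceeded replicate 3 in 40 of the 45 genes (88.9%, beside 55.7% of all probe sets), by a median of 0.41 (beside 0.04). The gap was widest for Cycs at 1.32, Cox7b at 1.08, Ndufs4 at 0.93 and Atp5e at 0.92 (0.38 on its other probe set). Next were Atp5pb, a part of the stator stalk, at 0.88 and Atp5g1 at 0.86. The gap was below 0 for Cyc1, Atp5o, Ndufb5, Ndufa5 and Cox7c, down to -0.27. The gap had a median of 0.43 in complex I, 0.43 in complex III with cytochrome c, 0.61 in complex IV and 0.40 in complex V, so genes of every complex took part. For 17 genes (37.8%, beside 8.89% of all probe sets) these 2 flox controls lay on either side of all 3 cKO arrays.

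The groups differed accordingly in how tightly these genes were placed. The median range within the flox controls was 0.48 for the subunit genes and 0.33 for all probe sets. Within the cKO it was 0.22 and 0.29. Between both Cre controls it was 0.10 and 0.14, a range over fewer arrays.

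The gap was also read in other lists of mitochondrial genes. Its median was 0.50 for 15 other complex I subunits, 0.32 for 4 complex II subunits, 0.39 for 7 other subunits of complexes III to V and 0.38 for 6 mitochondrial carriers and porins. It was 0.19 for 26 assembly factors, -0.04 for 5 tissue or inducible isoforms of the subunits, -0.07 for 12 regulators of transcription and mitochondrial DNA and -0.24 for 5 HIF-1 linked mitochondrial genes. Subunits and carriers were thus higher in replicate 1 than in replicate 3 as lists, while the isoforms, regulators and HIF-1 linked genes were not. For the 6 carriers replicate 3 was the lowest of the 8 arrays for 5, and replicate 1 the highest for 1. The lists were not tested against each other. The isoforms Cox7a1, Cox6b2 and Cox6a2 had mean levels of 5.48, 5.64 and 5.88, near the filter level of 5.45. Cox4i2 and Cox7a2l were at 6.30 and 8.03. The 47 cytosolic ribosomal proteins, a list added after the pattern was seen, had a gap of 0.45, so the difference was not limited to mitochondrial genes. Replicate 3 was the lowest of the 8 arrays for 68.1% of them, beside 15% of all probe sets. Replicate 1 was the highest for 25.5% of them, beside 22%. Among the subunit genes, the 16 with NRF1, ETS or YY1 letters had a median gap of 0.52 (0.15 to 1.32), and the 20 with a promoter but none of these letters had 0.38 (-0.27 to 1.08). The ranges overlapped from 0.15 to 1.08. On the chosen probe sets the lowest of these genes were without the letters. Atp5h, which has the ETS letters, was at -0.47 on its other probe set. The 9 measured genes without a listed promoter had a median gap of 0.45 (-0.05 to 0.85). A difference between these sets of genes was not tested.

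Other properties of the flox controls were read beside this pattern, and they followed its order only in part. Mean levels of neutrophil, stromal and B cell markers fell from replicate 1 to 3. Those of macrophages, T and NK cells, dendritic cells and mast cells were highest in replicate 2. These means are over all measured markers of a list, including those below the filter. Of the tested markers, replicate 1 was above replicate 3 for 8 of 10 neutrophil, 6 of 7 stromal and 2 of 3 B cell markers. Replicate 1 was the array with the low Xist level. In replicates 1, 2 and 3 the 10 neutrophil markers had mean levels of 12.12, 11.97 and 11.89. The 9 measured macrophage and monocyte markers had 9.16, 9.25 and 8.77, and the stromal and endothelial markers 7.18, 6.79 and 6.55. B cell markers had 5.96, 5.78 and 5.66, T and NK cell markers 5.87, 5.98 and 5.70, dendritic cell and class II markers 7.40, 7.61 and 7.33, and mast cell and eosinophil markers 5.66, 5.68 and 5.58. Of the measured markers, those passing the filter were 10 of 10 for neutrophils, 9 of 9 for macrophages, 7 of 8 stromal, 3 of 5 B cell, 8 of 10 T and NK cell, 7 of 7 dendritic cell, 3 of 6 mast cell and eosinophil, and 0 of 1 erythroid, the last at 4.99 to 5.36. In the other groups, stromal and endothelial markers ranged from 6.36 to 7.28 in the cKO and from 6.43 to 7.21 in the Cre controls. The mean levels of several lists also differed between the genotypes. None of the tested marker genes passed the adjusted threshold in any of the 4 comparisons, beside at most 0.486% of all probe sets. In the Cre minus flox control comparison 7 of 8 T and NK cell markers were higher, all but Cd3d. There 6 of 7 dendritic cell and class II markers were higher, all but Xcr1, beside 49.2% of all probe sets. Of 10 neutrophil markers 9 were lower there, all but Csf3r. Of T and NK cell, neutrophil and dendritic cell markers 75%, 50% and 42.9% had an unadjusted p below 0.05, beside 14.7%. Their groups did not overlap for 87.5%, 80% and 71.4%, beside 32.7% of all probe sets. Among macrophage, stromal, B cell and mast cell markers these shares were at most 22.2% and 33.3%. Dendritic cell and class II markers were at 7.33 to 7.61 in the flox controls, 7.67 to 7.84 in the cKO, with Cre controls at 7.76 and 7.80. Mast cell and eosinophil markers were at 5.58 to 5.68 in the flox controls, 5.75 to 6.08 in the cKO, with Cre controls at 5.88 and 5.96. T and NK cell markers were at 5.70 to 5.98, 5.96 to 6.21, and 6.22 and 6.41 in the same order. The Cre controls held the highest macrophage and monocyte levels, 9.33 and 9.34 beside 8.96 to 9.18 in the cKO, and the lowest neutrophil levels, 11.66 and 11.70 beside 11.77 to 12.00. B cell markers were at 5.77 to 5.86 in the cKO, with Cre controls at 5.78 and 5.85. The part of these markers in this pattern and in the comparisons between genotypes was not tested, and in pooled cells fewer cells of a type and less RNA per cell cannot be told apart.

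The comparison with the flox control depended on which of these arrays it held. Without replicate 1 the median over the 45 genes of the cKO minus flox control difference was 0.08, and without replicate 3 it was -0.10, against -0.01 with all 3. Without replicate 3, 5 of the 45 genes (11.1%) had an unadjusted p below 0.05 against the flox control, beside 10.2% of all probe sets in the same fit. The count was 3 (6.67%, beside 10.1%) against both controls and 8 (17.8%, beside 17.9%) between the Cre and flox controls, so these shares were near or below the background. No gene passed the adjusted threshold in either case.

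Further genes of the pathway were examined in the cKO against both controls. None of the 80 tested genes of these lists passed the adjusted threshold in any of the 4 comparisons, beside at most 0.486% of all probe sets. The 15 other complex I subunits had a median of 0.01, with Ndufs8 at 0.17, Ndufc2 at 0.14 and Ndufa3 at -0.19. The 4 subunits of complex II, succinate dehydrogenase, had a median of 0.05, with the flavoprotein Sdha at 0.24 (SE 0.12, limma adjusted p = 0.563). The 26 assembly factors tested had a median of -0.04, and 8 of them were higher in the cKO (30.8%, beside 53.4% of all probe sets). Coa6, a copper handling factor of complex IV, was at 0.37 (SE 0.13, unadjusted p = 0.0169, limma adjusted p = 0.422). It was the one assembly factor with an unadjusted p below 0.05 (3.85%, beside 9.52% of all probe sets). Surf1, another complex IV assembly factor, was at 0.23.

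The 12 regulators tested had a median of 0.03, and 7 of them were higher in the cKO. Esrra, which encodes the nuclear receptor ERR alpha, was at -0.27 (SE 0.12, unadjusted p = 0.0447, limma adjusted p = 0.518). It was the one regulator with an unadjusted p below 0.05 (8.33%, beside 9.52% of all probe sets). Myc was at -0.30 and Gabpb1, a GABP subunit, at -0.24. The coactivator gene Ppargc1a lay at 2.82 to 3.44 on all arrays, below the filter level of 5.45, and Tfam, which packages mitochondrial DNA, did not pass the filter either. Among the 6 carriers, Slc25a3, the phosphate carrier, was at 0.33 (SE 0.16, limma adjusted p = 0.568), Vdac3, a porin, at -0.27 and Slc25a4, an ADP/ATP carrier, at 0.22. The 5 HIF-1 linked genes tested included Hif1a at 0.21, Higd1a at 0.17 and Lonp1 at 0.12, none with an unadjusted p below 0.05.

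Several of these genes have close copies in the genome, which limits what their probe sets measure. The chosen probe sets of Cycs, Cox5b and Atp5h stand in the array's order among probe sets of genes on other chromosomes, for 20 of 20 neighbours each. Those of Uqcrb (13 of 20 neighbours) and Cox7b (11 of 17) do so less clearly, and such probe sets may lie in copies of the gene. For these genes the source of the signal is uncertain. The Cycs probe set with 20 of 20 neighbours on the gene's own chromosome 6 gave a cKO difference of -0.30 (SE 0.22) from both controls, beside -0.22 for the chosen one. The remaining Cycs probe sets gave -0.04 (SE 0.26) and -0.13 (SE 0.24), the latter on probe sets with identical values. Against the flox control the Cycs probe sets differed in sign, from -0.29 to 0.23. The gap between flox control replicates 1 and 3 was 1.09 to 1.37 over all the Cycs probe sets. For Atp5h it was 0.75 on the chosen probe set and -0.47 on the one among neighbours of its own chromosome 11, so the sign of the gap differed between its probe sets. For Cox7b it was 1.08 on the chosen probe set, and the other one did not pass the filter on low levels and gives no comparison. For Cox5b it was 0.39 and 0.56. Both Atp5e probe sets stand among neighbours of its own chromosome 2, and the gap was 0.92 on the chosen one and 0.38 on the other.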

How the data were processed

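RNA of 8 neutrophil pools (3 cKO, 3 flox control, 2 Cre control) was hybridised to Affymetrix Mouse Gene 2.0 ST arrays. The authors subtracted background and normalised intensities by RMA in Expression Console, per the design text, and deposited log2 values. The RNA reagent and the labelling kit are named differently in the design text and in the labels' protocols. Per the labels' protocols, 100 ng of RNA with an integrity number of at least 7 was used.

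Of 34472 probe sets, 23521 carried 1 gene symbol, 1814 several and 9137 none. The 14002 single-symbol probe sets above the median of all values, 5.45, on at least 2 arrays were tested, and 43 of the 45 genes were above it on all 8. One limma model (limma 3.58.1, R 4.3.3, tested on simulated data) was fitted to the 3 groups, with Benjamini-Hochberg adjustment over all tested probe sets. The contrast against both controls subtracts the unweighted mean of the control groups. With 8 arrays, 5 residual degrees of freedom were left, so the number of arrays limits the precision.

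Genes given on every array were, by rule, the 2 with the smallest p in each comparison, the 2 with the largest difference from both controls in each complex, and fixed paralogues. Ndufv1 was added because its groups did not overlap, and Cox6a1, Atp5h and Atp5j because their promoter stretches are printed, after their values were seen. Of each other list, up to 3 genes with the smallest p are named. The members and lists were chosen with earlier results of these data known. Alternatives were each array left out, other filters, array weights, centring, quantile normalization, robust trended moderation, only the groups compared, and other probe sets per gene. A comparison of protein sequences was planned and not run, since no protein table was used here.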

Additional observations from a re-analysis of the deposited data

How the results depend on the processing

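The results were recomputed under 19 other settings, which gave 405 values. No gene of the 45 passed the adjusted threshold under any of them. Of the 405 values 404 counted as unchanged, under loose criteria. Single genes had to keep their sign and their side of the adjusted threshold, whatever their size. Medians over the genes had to move by less than 0.14, the SD between arrays of a group of the genes' mean deviation. The medians were themselves smaller than 0.14, so a turn of their sign still counted as unchanged. The counts of genes passing were all 0. The 404 therefore says little about how stable the sizes were. The exception was Uqcrb in the cKO against both controls, at -0.11 with all arrays, which ranged from -0.23 without cKO replicate 2 to 0.0067 without cKO replicate 3 and passed the test in neither. The median over the genes ranged from -0.04 to 0.07 against both controls, from -0.10 to 0.08 against the flox control, from 0.05 to 0.09 against the Cre control and from -0.15 to 0.04 for the Cre control minus the flox control. Its sign turned in 2, 3, 0 and 2 settings. Leaving out flox control replicates 1 and 3 together, and using probe sets on the gene's own chromosome (43 genes tested), were chosen after seeing the data. Fitting only the groups compared gave no separate value for both controls, which already use all groups. No paired analysis was possible because the groups share no replicate numbers in the labels.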
